A study of Mus musculus with 4 samples.

Results

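The change in exosomal miRNA content between the start of adipocyte differentiation (D0) and its day 4 (D4) was measured on 2 of the 4 arrays of the series, the array of D0 and the array of D4. Both hold RNA of the exosome fraction that 3T3-L1 cells released into their medium. The 3T3-L1 line is a mouse line of fibroblast-like preadipocytes that accumulate lipid and become adipocytes under hormonal induction. At D0 the cells had been kept in low-glucose growth medium. By D4 they had passed through a first differentiation medium, with 1-methyl-3-isobutylxanthine, dexamethasone and insulin in high-glucose DMEM, and had been moved to a second one in which insulin alone remained. Fetal bovine serum depleted of exosomes, penicillin and streptomycin were present in the medium of both days. The vesicles were pelleted from the medium by ultracentrifugation. RNA from 2 (study methods) or 3 (sample labels) independent experiments was mixed, so that each day is 1 array and 1 pool. No replicate check of a difference between the days exists, no p-value is given, and the day, the medium and the array cannot be told apart. The arrays carry miRNA probes only, so the labelled cell type could not be checked against adipocyte mRNA markers.

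Members were chosen by the array's own annotation. All spots that are not controls were taken, with 1 total gene signal for each miRNA name, its technical error and the detection call of the software. The total gene signal is an intensity summed over the probes of a miRNA that pass 3 times their error, and a miRNA without such a probe is listed at 0.1. Of the 1881 miRNAs on the array, 438 were detected on at least 1 of the days and 1443 on neither. In all that follows, a ratio is the D4 signal divided by the D0 signal without scaling between the arrays unless scaling is named, and the error after ± is the technical error within the 2 arrays. Raised means a ratio above 2 and lowered means a ratio below 0.5. These words describe 2 pooled arrays.

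A miRNA is a short RNA cut from a hairpin precursor, which yields a 5p and a 3p arm. One arm is usually kept as the guide strand in the silencing complex, where its seed, bases 2 to 8 from the 5′ end, selects target mRNAs, while the other arm is the passenger strand. Cells also export miRNAs in exosomes, small vesicles of the endosomal pathway, and the exported set need not mirror the set inside the cell. In preadipocytes, let-7, miR-27 and miR-130 are known to restrain the adipogenic programme, and miR-103, miR-26, miR-30 and miR-193 have been described as rising in or promoting it.

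The first sequences are those of miRNAs with the highest ratios, shown with some relatives of the same seed (miR-99b-5p, miR-100-5p, miR-16-5p, miR-15a-5p and let-7a-5p), because many of them share a seed. The mature sequences were taken from RefSeq (mouse GRCm38.p6) and were found there for 255 of the 317 miRNAs detected on both days. Capitals mark the seed, and sequences with the same capitals belong together.
miR-451a: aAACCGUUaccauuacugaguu
miR-99a-5p: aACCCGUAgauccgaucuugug
miR-99b-5p: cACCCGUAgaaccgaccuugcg
miR-100-5p: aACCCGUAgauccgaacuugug
miR-322-5p: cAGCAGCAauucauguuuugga
miR-16-5p: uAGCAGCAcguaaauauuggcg
miR-15a-5p: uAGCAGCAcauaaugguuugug
miR-103-3p: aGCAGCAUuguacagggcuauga
miR-107-3p: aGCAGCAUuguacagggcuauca
miR-26a-5p: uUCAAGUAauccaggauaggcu
miR-26b-5p: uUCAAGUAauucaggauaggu
let-7c-5p: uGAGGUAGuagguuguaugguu
let-7a-5p: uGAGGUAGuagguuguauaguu
miR-106b-5p: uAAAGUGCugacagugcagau

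The next set shows miR-721, the miRNA with the lowest ratio, beside miR-130a-3p and miR-301a-3p, which carry the same seed in capitals.
miR-721: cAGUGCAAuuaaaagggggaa
miR-130a-3p: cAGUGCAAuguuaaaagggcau
miR-301a-3p: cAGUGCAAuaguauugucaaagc

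The last set gives 4 of the brightest miRNAs that were detected at D4 but not at D0, again with the seed in capitals.
miR-10b-5p: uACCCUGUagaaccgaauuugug
miR-155-5p: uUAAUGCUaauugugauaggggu
miR-152-3p: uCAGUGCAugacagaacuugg
miR-146b-5p: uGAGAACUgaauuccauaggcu

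The D4 array showed more miRNAs and higher signals than the D0 array. At D0 329 miRNAs were detected and at D4 426. A total of 317 were detected on both days, 109 were gained at D4 and 12 were lost. Over the 317, the median ratio was 2.47 with quartiles of 1.64 and 4.31, and 300 ratios were above 1. The signal summed over all detected miRNAs was 12716 at D0 and 39129 at D4.

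A part of this shift was also present in RNA that did not come from the cells. The 4 spike-in RNAs, which the kit supplies as controls of labelling and hybridization, were brighter at D4 by 1.99-fold (dmr_285), 1.78-fold (dmr_31a), 1.64-fold (dmr_6) and 1.91-fold (dmr_3). Division by the geometric mean of these factors, 1.82 (0.87 on the log2 scale) left a median ratio of 1.35, with quartiles of 0.899 and 2.36, and 216 miRNAs above 1 against 101 below it. The D0 array was also uneven. Replicate spots of a probe varied there by 21.1% (median coefficient of variation) against 7.19% at D4, and over the miRNAs detected on both whole arrays the median ratio was 2.10 on the right side and 3.04 on the left. The spike-in factor moved in the same way, from 1.47 on the right to 2.41 on the left, and the median miRNA ratio divided by the factor of its own side was 1.43 and 1.26.

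Unscaled, 197 of the 317 miRNAs (62.1%) were raised and 1 (0.315%) was lowered. After scaling by the spike-in RNAs 92 (29.0%) were raised and 13 (4.10%) lowered, and in 52 and 2 of these the ratio passed the threshold by more than 2 technical errors. Of the called miRNAs 99.5% were thus raised when unscaled and 87.6% after spike-in scaling. Scaling each array to its 75th percentile, which sets the bulk of the miRNAs against one another, gave 30 raised and 101 lowered (22.9% raised), and quantile normalization gave 36 raised (11.4% of the 317) and 68 lowered (21.5%), or 34.6% raised among those called. With quantile normalization the median ratio was 0.814, so values under it are given beside the main results. This normalization ran over all 1881 miRNAs on the array, with undetected ones at 0.1. More miRNAs stood at 0.1 at D0 than at D4. By construction this lowers the ratios of the dimmest miRNAs, and it bears on the lowered counts and medians under this setting. How many miRNAs count as raised therefore differed with the scaling, whereas the order of the ratios is the same under any single factor. Across the 317 miRNAs the log2 signals of the days correlated with a Pearson coefficient of 0.855 and a Spearman coefficient of 0.804. These points are miRNAs of the same 2 arrays and not independent samples.

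**Figure D1:**
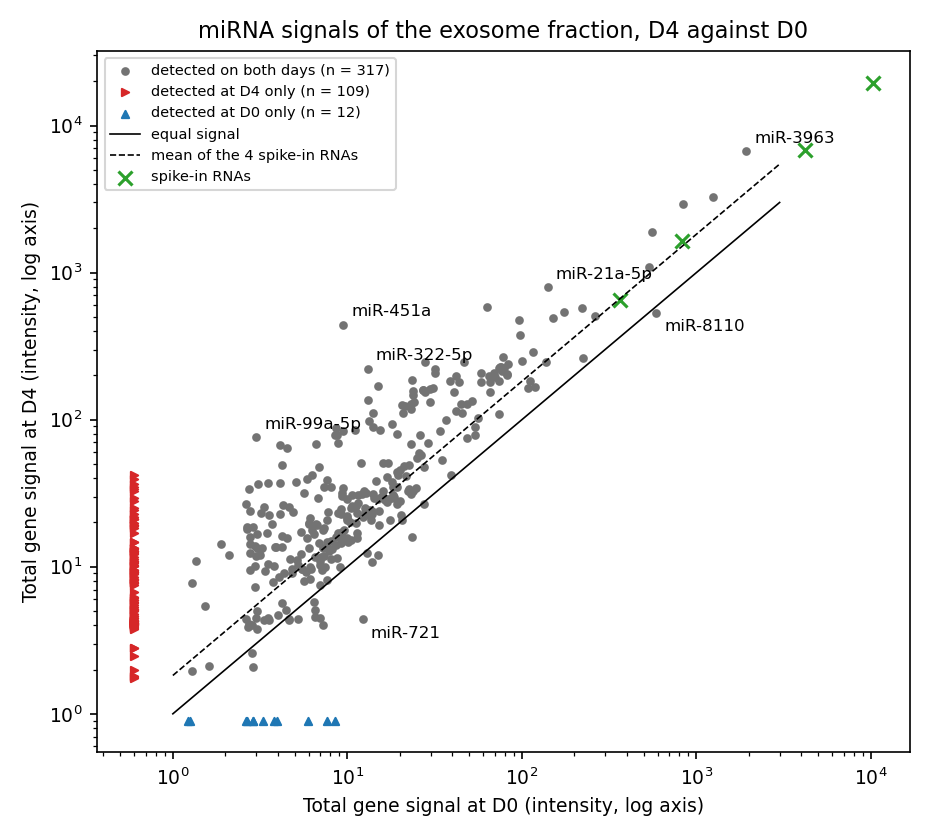
Total gene signal at D0 (x axis) and D4 (y axis) on log axes, 1 point per miRNA, with triangles at the margins for miRNAs detected on 1 day only (placed at no measured value on the other axis), crosses for the 4 spike-in RNAs, a solid line at equal signal and a dashed line at the mean spike-in factor of 1.82. Of the 317 miRNAs detected on both days, 300 lie above the solid line and 216 above the dashed line.

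The highest ratio was that of miR-451a, which is known as an abundant miRNA of red blood cells. It is encoded at chr11:78073186-78073207 (plus strand, GRCm38.p6) and lies within the span of no other gene of the RefSeq table. Its signal was 9.40 ± 1.37 at D0 and 443 ± 33.8 at D4, a ratio of 47.1 ± 7.74. The ratio was 39.0 on the right side of the arrays, 25.8 after spike-in scaling, 15.9 after quantile normalization and 13.3 after normexp background correction. The offset of normexp draws dim ratios towards 1.30 where the same probes were summed on both days. That value is the ratio of the effective spot sizes of the arrays, a factor of the software applied after the offset. miR-451a had the highest ratio of the 317 under each of these settings.

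miR-99a-5p came second. Its D0 signal was 3.00 ± 0.879 and its D4 signal 75.9 ± 6.47, a ratio of 25.3 ± 7.71, or 13.9 after spike-in scaling and 6.95 after quantile normalization. At D0 the software summed 1 of its probes and at D4 it summed 2, and over the shared probe the ratio was 20.1. The gene lies at chr16:77598940-77598961 (plus strand), next to one of the let-7c genes at chr16:77599672-77599693, and its family is known to target mTOR. miR-99b-5p, of the same seed, had signals of 4.12 and 36.9 and a ratio of 8.94 ± 2.14. The third member, miR-100-5p, was not detected at D0 and had a signal of 10.7 ± 1.60 at D4.

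The miR-15, miR-16 and miR-322 family, known for targeting cyclins and BCL2, held the next ratio. miR-322-5p, encoded on the X chromosome at chrX:53054306-53054327 (minus strand), measured 13.1 ± 1.51 at D0 and 222.3 ± 16.1 at D4. Its ratio of 17.0 ± 2.32 (9.34 after spike-in scaling and 6.38 after quantile normalization) came from the same probes on both days. For miR-16-5p the signals were 6.59 and 68.6 and the ratio was 10.4 ± 1.91, and for miR-15b-5p they were 14.1 and 111, with a ratio of 7.87 ± 1.06. Of the other members on the array, miR-15a-5p and miR-195a-5p were gained at D4 and 1 was not detected.

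miR-103-3p and miR-107-3p differ only near the 3′ end, as their printed sequences show, and their probes may share signal. They are encoded within genes of pantothenate kinases (Pank2 and Pank3 for the copies of miR-103, Pank1 for miR-107). miR-103-3p had signals of 4.11 and 67.8, a ratio of 16.5 ± 3.96, and miR-107-3p had 4.25 and 49.4, a ratio of 11.6 ± 2.75. Over the shared probe these ratios were 12.0 and 9.23. miR-26a-5p (4.52 and 64.5, ratio 14.3 ± 3.18) and miR-26b-5p (2.73 and 33.6, ratio 12.34 ± 4.08) lie within genes of the Ctdsp phosphatases, and their ratios over the shared probe were 9.55 and 7.96.

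The remaining ratios among the 10 highest were those of miR-30d-5p (11.9 ± 3.56), let-7c-5p (11.2 ± 1.55) and miR-106b-5p (10.6 ± 2.85). Of the 10, 7 had 1 probe summed at D0 and 2 at D4, and miR-451a, miR-322-5p and let-7c-5p had the same probes on both days. For miR-30d-5p the shared probe gave 6.38 in place of 11.9. Many of the D0 signals were also near the floor. In miR-103-3p, miR-26a-5p, miR-26b-5p, miR-30d-5p, miR-107-3p and miR-106b-5p they lay between 2.73 and 4.52. The signals that could go undetected at D0 were higher for these miRNAs, between 5.09 and 5.34, so their ratios are imprecise. More probes were summed at D4 for 57 of the 317 miRNAs and fewer for 7. Over shared probes alone 190 miRNAs were raised and the median ratio was 2.37, close to the 197 and 2.47 of the summed signals. After spike-in scaling the 10 ratios lay between 5.82 and 25.8 and after quantile normalization between 3.26 and 15.9, all above 2.

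**Figure D2:**
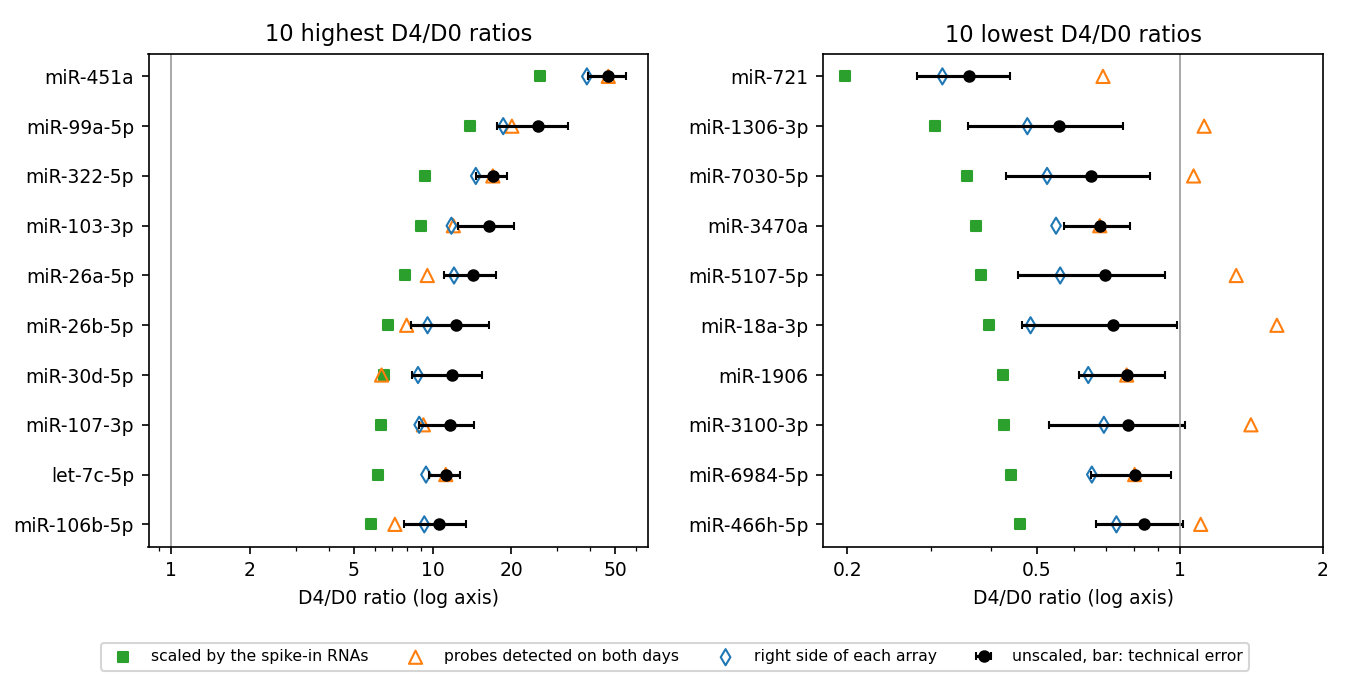
D4/D0 ratio on a log axis for the 10 miRNAs with the highest (left) and the 10 with the lowest unscaled ratio (right), with the technical error as bars, and the same ratio after spike-in scaling, over the probes detected on both days and on the right side of the arrays. In the left panel every marker lies above 5, and in the right panel 6 of the 10 shared-probe markers lie above 1.

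Low ratios were few and depended on the probes. miR-721 was the single miRNA below 0.5 without scaling. Its signal was 12.2 ± 1.04 at D0 and 4.40 ± 0.898 at D4, a ratio of 0.360 ± 0.080 (0.198 after spike-in scaling), but 4 probes were summed at D0 and 2 at D4, and over the shared probes the ratio was 0.689. It was not detected at D12 or D16. miR-130a-3p, which has the same seed, was at 15.4 ± 1.61 and 84.7 ± 6.30 with a ratio of 5.50 ± 0.706, and miR-301a-3p was gained, with 9.26 ± 1.51 at D4. These 3 miRNAs with one seed thus lay on both sides of 1.

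The next 9 ratios ran from 0.558 for miR-1306-3p to 0.842 for miR-466h-5p. In miR-1306-3p, miR-7030-5p, miR-5107-5p, miR-18a-3p, miR-3100-3p and miR-466h-5p, 2 probes were summed at D0 and 1 at D4, and the shared-probe ratios were between 1.07 and 1.60. The other 3 used the same probes on both days. miR-3470a had 23.5 ± 2.16 at D0 and 15.9 ± 2.08 at D4, a ratio of 0.679 ± 0.108 (0.372 after spike-in scaling), miR-1906 had 0.773 ± 0.158 (0.424) and miR-6984-5p had 0.804 ± 0.153 (0.441). After normexp background correction these 3 stood at 1.004, 1.103 and 1.128, and after quantile normalization at 0.197, 0.279 and 0.290. By construction, normexp draws dim ratios of unchanged probes towards 1.30. The normexp values therefore cannot show whether these 3 were lowered.

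Of the 13 miRNAs lowered after spike-in scaling, 10 were those just named. The others, miR-466f-5p, miR-466j and miR-8110, had unscaled ratios of 0.910, 0.891 and 0.909 and scaled ratios of 0.499, 0.489 and 0.499, close to the threshold. miR-8110 was the one bright miRNA among the 13, at 587 ± 42.4 on D0 and 534 ± 37.8 on D4. It carried 4.62% of the summed signal at D0 and 1.36% at D4. Its ratio after quantile normalization was 0.287. For comparison, the signal of miR-3963 was 1918 ± 165 at D0 and 6731 ± 548 at D4, a ratio of 3.51 ± 0.416, and its share was 15.1% and 17.2%.

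The 10 brightest miRNAs carried 51.6% of the summed signal at D0 and 48.3% at D4, and 8 of them were in common. Among the 10 at D4 and not at D0 were miR-21a-5p and miR-199a-3p. miR-21a-5p is known to be induced in growing and fibrotic tissues and is encoded within the span of Vmp1. miR-199a-3p has a copy within Dnm3os, a locus known for mesenchymal expression, and another within Dnm2. Both copies give the same mature sequence, so the array cannot tell them apart. The signal of miR-21a-5p was 140 ± 12.0 at D0 and 797 ± 68.5 at D4, a ratio of 5.68 ± 0.690 (3.12 after spike-in scaling, 2.11 after quantile normalization). The signal of miR-199a-3p was 62.8 ± 4.98 and 581 ± 43.3, a ratio of 9.25 ± 1.01 (5.08 and 3.23). Intensities of different probes are not a measure of relative abundance, so these places describe brightness on the array.

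Among the 109 miRNAs gained at D4, 5.79% of all on the array, the D4 signals ran from 1.75 to 41.8 with a median of 7.84. They carried 2.95% of the summed D4 signal. The count moved with the unevenness of the D0 array, to 72 when only the right side of both arrays was read and 161 with the left side, and 6 passed a filter on signals above a median of the study's methods. Because a signal of up to about 5.001 (median limit of the 109) could go undetected at D0, a fold can be given only as a lower bound against that limit. The bound was above 1 for 71 of the 109 and above 2 for 41, and after spike-in scaling for 46 and 19. For the other 38, the D4 signal itself was no higher than what could have been missed at D0.

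The brightest of the gained miRNAs was miR-669m-3p, with 41.8 ± 2.42 at D4, at least 8.41-fold higher than at D0 (at least 4.62-fold after spike-in scaling). It was followed by miR-6481 (39.8 ± 3.36, at least 8.06-fold) and miR-15a-5p (36.7 ± 3.10, at least 7.17-fold). miR-10b-5p, encoded among the Hoxd genes, had a signal of 34.99 ± 3.19 and was at least 7.04-fold higher. miR-155-5p, known as a miRNA of activated immune cells that also restrains adipogenesis, had 33.9 ± 3.22 and was at least 6.81-fold higher. The other 5 of the 10 brightest were miR-151-5p, miR-152-3p, miR-365-3p, miR-146b-5p and miR-29c-3p, with D4 signals between 24.4 and 32.8 and bounds between 4.80 and 6.48.

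Most gained miRNAs were still detected later. Of the 109, 83 were detected at D12 and 70 at D16, 67 on both days and 23 on neither. In 44 of them the D12 signal was above that of D4. miR-155-5p was the brightest of the 23, with no detection at D12 or D16, whereas miR-15a-5p was at 69.8 at D12 and 50.7 at D16, and miR-152-3p at 47.7 and 31.6. Of the 317 miRNAs detected on both days, 291 were detected at D12 and 286 at D16.

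**Figure D3:**
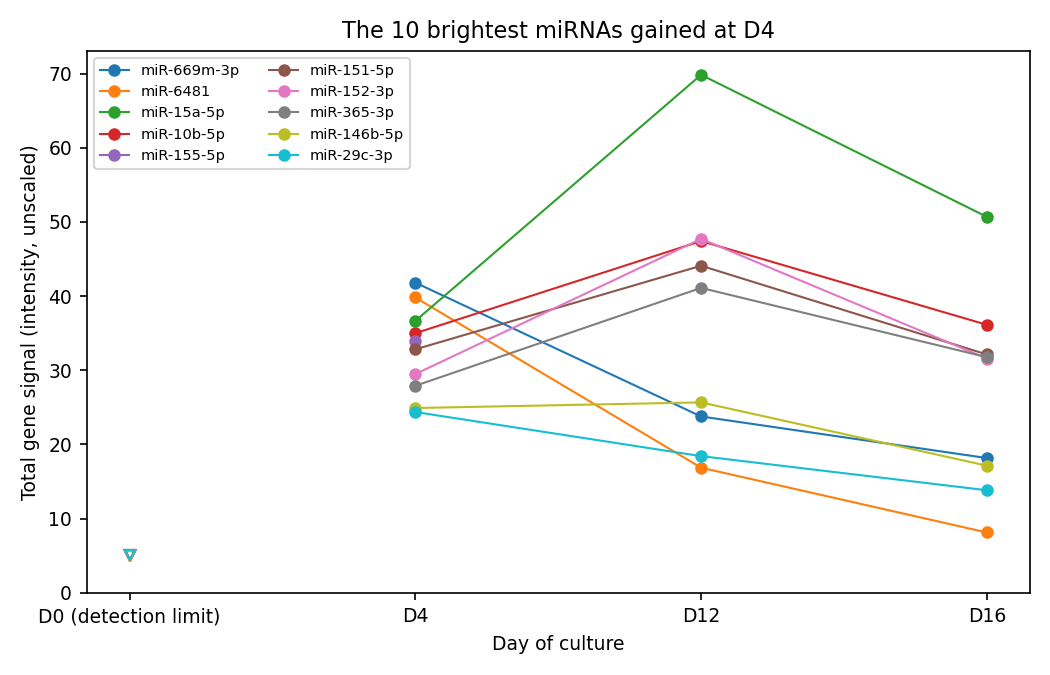
Unscaled total gene signal on a linear axis of the 10 brightest miRNAs gained at D4, at D4, D12 and D16, with open triangles for the signal that could go undetected at D0. All 10 lie above 24 at D4, and miR-155-5p has no point at D12 or D16.

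The 12 lost miRNAs, 0.638% of those on the array, were dim, with D0 signals between 1.22 and 8.54 and a median of 3.09. Together they carried 0.367% of the summed D0 signal. On the right side of the arrays 36 were lost and on the left side 4, and with the filter on bright signals 0. Only miR-5099 (8.54 ± 1.32 at D0, at least 1.16-fold lower at D4) and miR-7043-5p (7.61 ± 1.05, at least 1.03-fold lower) exceeded what could be missed at D4. After spike-in scaling the bounds were 2.11 and 1.87, and miR-6918-5p joined them with 1.48. For the other 9 no fold can be given. At D12 6 of the 12 were detected again, and at D16 3.

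The families that guide strands belong to were then followed as lists, each beside the median ratio of 2.47 and the 62.1% raised among all 317. These lists were chosen with results of these data known and are described without a test. Both scales means unscaled and spike-in scaled. After quantile normalization 11.4% of all were raised, and the counts under it stand beside the larger lists. All 8 let-7 guide strands detected on both days were raised, also after spike-in scaling (29.0% of all), with ratios from 5.72 for let-7i-5p to 11.2 for let-7c-5p and a median of 7.13 (3.91 scaled). After quantile normalization 5 of the 8 were raised, with a median of 2.27. The ninth member, miR-98-5p, was gained with 5.16 at D4. let-7a-5p, for example, had 27.7 ± 2.44 at D0 and 249 ± 19.5 at D4. Together the let-7 guides carried 1.20% of the summed signal at D0 and 2.93% at D4. The let-7 guides differ in few bases, so probes may share signal between them.

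The miR-17-92 and miR-106b-25 clusters, known to promote proliferation, gave 5 of 5 raised under both scales, with a median ratio of 7.67 and a range from 5.07 for miR-92a-3p to 10.6 for miR-106b-5p, and 4 of 5 were raised after quantile normalization. A further 2 members, miR-19a-3p and miR-93-5p, were gained and 2 were not detected. This list held guide arms only. Outside it, miR-18a-3p of the miR-17-92 cluster, among the lowest ratios above, had 0.725 ± 0.259 (0.398 after spike-in scaling). Its ratio was 1.60 over the shared probe. The list of mesenchymal miR-199 and miR-214 arms joins more than 1 locus. All 4 of its detected members were raised on both scales and after quantile normalization, from 7.87 for miR-214-3p to 10.4 for miR-199b-5p. Their share of the summed signal was 0.855% at D0 and 2.52% at D4. In the miR-23, miR-24 and miR-27 clusters 4 of 4 were raised on both scales within a narrow range, from 5.21 for miR-27a-3p to 5.90 for miR-24-3p, and 0 of 4 after quantile normalization (median 1.65). In the collagen-targeting miR-29 family miR-29c-3p was gained, and the 2 members detected on both days were raised on both scales. miR-29a-3p had 96.2 ± 7.73 and 474 ± 36.9, a ratio of 4.92 ± 0.551. Neither of the 2 was raised after quantile normalization (median 1.52).

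miR-125b-5p and miR-125a-5p stood close together, at 6.49 ± 0.924 and 6.66 ± 1.26. miR-34a-5p, a known p53 target, had 5.11 and 37.9, a ratio of 7.42 ± 1.56, and the other two members of its family were gained. Of the miR-30 family only miR-30d-5p was detected on both days, and its 4 relatives were gained with D4 signals from 5.53 (miR-30e-5p) to 21.3 (miR-30a-5p). In the miR-148 and miR-152 family no member was detected at D0, and miR-152-3p (29.5) and miR-148b-3p (3.86) were detected at D4.

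Of 15 miRNAs described as rising in or promoting adipogenesis, 7 were detected on both days, and all 7 were raised on both scales, with a median ratio of 11.9 (6.53 scaled), and 7 of 7 also after quantile normalization (median 3.70). The lowest was miR-21a-5p, and miR-193b-3p, a miRNA linked to brown fat, had 2.63 ± 0.864 and 26.6 ± 2.61, a ratio of 10.1 ± 3.47. Except for miR-21a-5p, the 7 had 1 probe summed at D0 and 2 at D4. Over the shared probe the ratio was 6.81 for miR-193b-3p and 6.38, in place of 11.9, for miR-30d-5p, which set the median. A further 6 were gained, among them miR-365-3p and the hypoxia-responsive miR-210-3p (21.9 at D4, at least 4.46-fold higher), and 2 (miR-148a-3p and miR-378a-3p) were detected on neither day. Of 11 described as falling in or opposing adipogenesis, 3 were detected on both days and all 3 were also raised on both scales: miR-27a-3p (5.21 ± 0.693), miR-130a-3p (5.50) and miR-221-3p (4.88 ± 1.097). Another 5 were gained (miR-155-5p, miR-31-5p, miR-224-5p, miR-27b-3p and miR-222-3p) and none was lost. The median of the 3 was 5.21, or 2.86 scaled, and 0 of 3 were raised after quantile normalization (median 1.76). Of these 3, miR-221-3p had 1 probe summed at D0 and 2 at D4, with a ratio of 3.41 over the shared probe. The let-7 guides, which are also known to restrain adipogenesis, were kept as a list of their own, and with them the 11 opposing miRNAs detected on both days had a median of 6.32, or 1.96 after quantile normalization. The difference between the promoting and the opposing list cannot be tested with 1 array a day.

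**Figure D4:**
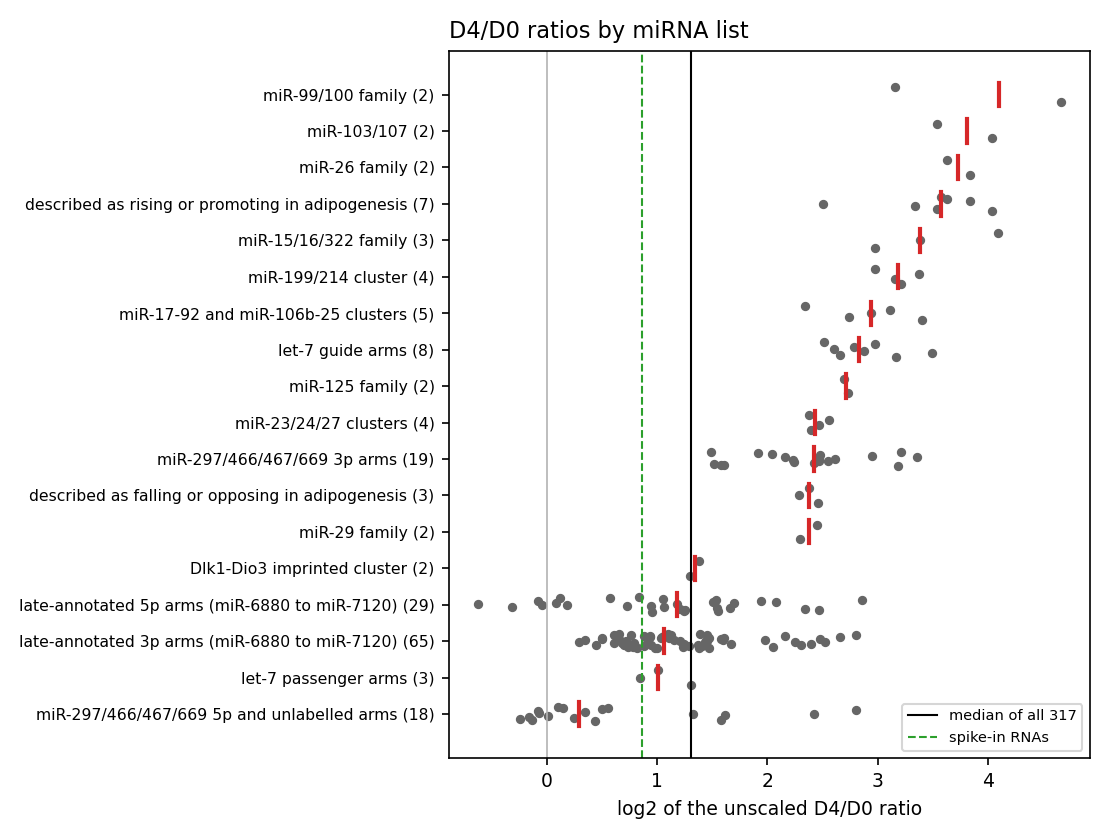
log2 of the unscaled D4/D0 ratio of each miRNA detected on both days (grey points), by list, with the list's median as a red bar and the number of points in brackets. Solid, dashed and pale lines mark the median of all 317 (2.47, or 1.30 on the log2 scale), the mean spike-in factor and equal signal, and the 5p and unlabelled arms of the miR-297, miR-466, miR-467 and miR-669 families have the lowest median.

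miRNAs known from other cell types were examined next. Of 4 erythroid miRNAs on the array, miR-451a was raised, miR-144-3p (21.3 ± 2.26 at D4, at least 4.33-fold higher) and miR-486a-5p (4.32 ± 1.27, within the D0 limit) were gained, and 1 was not detected. Their summed signal was 9.40 at D0 and 468 at D4. One of 4 leukocyte miRNAs was gained (miR-223-3p, 16.9 ± 2.15, at least 3.41-fold higher), as was 1 of 2 endothelial ones (miR-126a-3p, 13.4 ± 1.94, at least 2.72-fold higher), while the leukocyte markers miR-142a and miR-150-5p were not detected. The liver miRNA miR-122-5p and all 7 miRNAs of striated muscle were not detected on either day. The source of the erythroid, leukocyte and endothelial miRNAs was not tested.

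The arms of 1 hairpin did not always move together. In the miR-297, miR-466, miR-467 and miR-669 families, a large group of repeated hairpins of which many lie in an intron of the imprinted gene Sfmbt2, the 19 3p arms detected on both days were all raised without scaling and 15 of them after spike-in scaling, with a median ratio of 5.35 (2.93 scaled). After quantile normalization 4 of the 19 were raised (median 1.29). A further 5 were gained. Of the 18 5p or unlabelled arms detected on both days, 5 were raised without scaling and 2 after it, with a median of 1.23 (0.673 scaled), 13 were below 1 after spike-in scaling and 15 after quantile normalization (median 0.343), and 1 other arm (miR-467c-5p) was lost. The share of the summed signal was 5.41% at D0 and 7.73% at D4 for the 3p arms and 5.09% and 3.33% for the others.

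In 8 hairpins of these families both arms were measured on both days, and the 3p ratio was above the 5p ratio in 8 of 8, by more than 2 technical errors in each, and also on the right side of the arrays and after normexp correction. The quotient of the 2 ratios, which no scaling factor changes, had a median of 4.36 and ran from 2.42 (miR-466i) to 10.7 (miR-669b). The 5p arm of miR-669b had 12.9 at D0 and 12.33 at D4 (ratio 0.954 ± 0.184) and its 3p arm 8.56 and 87.7 (10.2 ± 1.75). The 5p arms of miR-466f, miR-466h and miR-669f were near the floor on both days, with signals from 2.60 to 5.24. Their 3p arms lay between 43.8 and 227. Among the 23 other hairpins with both arms, the 3p ratio was higher in 11, by more than 2 technical errors in 5. The median quotient was 0.985, with a range from 0.206 (miR-211) to 6.44 (miR-7070). Both extremes depended on the probes summed. Over shared probes the ratio was 2.59 in place of 7.54 for miR-211-5p and 3.12 in place of 7.00 for miR-7070-3p. In the repeated families, miR-466h-5p had 1.11 over the shared probe in place of 0.842. The sequences of the repeated families are nearly alike, so the 8 hairpins are not separate measurements, and a probe of one member may also bind another.

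The let-7 hairpins went the opposite way. The guide let-7d-5p had a ratio of 7.35 ± 1.04 and its passenger let-7d-3p one of 1.79 ± 0.201, and let-7b (6.32 against 2.48) and let-7g (7.88 against 2.01) showed the same order. The 3 passengers had a median ratio of 2.01, or 1.104 after spike-in scaling, and 0 of 3 were raised after it. In miR-199a the arms had like ratios, 8.90 ± 1.47 for 5p and 9.25 for 3p.

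**Figure D5:**
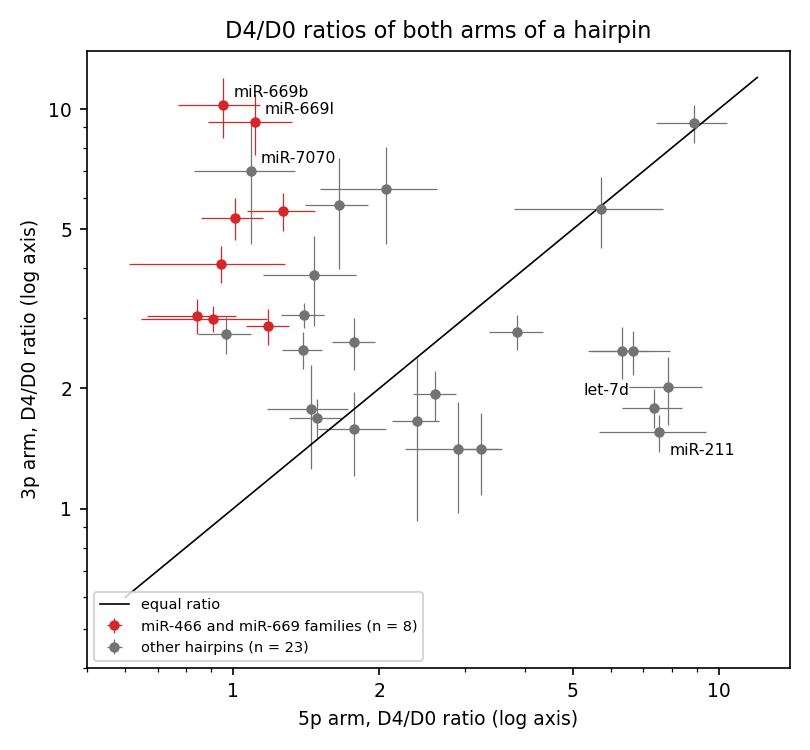
D4/D0 ratio of the 5p arm (x axis) and the 3p arm (y axis) of each hairpin with both arms detected on both days, on log axes with technical errors as bars, and a line at equal ratio. The 8 hairpins of the miR-466 and miR-669 families (red) all lie above the line, and 11 of the 23 others (grey) do. Ratios are those of summed signals, also where the number of probes differed between the days.

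The ratios also went with base composition, which the choice of members did not use. This held mainly among miRNAs with lower registry numbers, as given below. Over the 255 miRNAs with a sequence, the Pearson correlation between the GC content and the log2 ratio was -0.36 (Spearman -0.33), and it was -0.37 on the right side of the arrays and -0.34 after normexp correction. The points share both arrays and, within families, much of their sequence. The median ratio was 6.06 for 18 miRNAs under 40% GC, 5.10 for 36 between 40 and 50%, 2.48 for 89 between 50 and 60%, and 2.08 for 112 at 60% or above. The median GC content was 57.1% in the raised miRNAs, 60.9% in those detected on both days but not raised, and 51.1% in the gained ones. In the 1443 miRNAs detected on neither day it was 50%, near that of the gained ones.

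The ratios also differed with the registry number, which follows the order in which miRNAs were catalogued. With a limit at miR-1000, chosen after the values were seen, the 129 miRNAs with lower numbers had a median ratio of 4.11, and 73.6% of them were raised (51.9% after spike-in scaling). The 188 with higher numbers had a median of 2.12, and 54.3% were raised (13.3% after scaling). The older miRNAs carried 26.3% of the summed signal at D0 and 35.6% at D4. Registry number and base composition overlapped. Among miRNAs with a sequence, the median GC content was 50% in 91 with lower numbers and 61.9% in 164 with higher numbers. The Pearson correlation between GC content and log2 ratio was -0.33 in the lower numbers (Spearman -0.36). In the higher numbers it was -0.065 (Spearman -0.074). Among the late-annotated miR-6880 to miR-7120, the 29 5p arms had a median ratio of 2.26 and the 65 3p arms one of 2.09, both below the median of all 317.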

How the data were processed

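Per the labels and the study's methods, the authors labelled RNA of the exosome fraction with Cy3, hybridised it to mouse miRNA arrays with the kit's spike-in RNAs, 1 array a day, and deposited the output of Agilent Feature Extraction 11.0.1.1. The deposited intensity values are background-subtracted and not scaled between arrays. Each array holds 56430 miRNA spots, 30 for each of 1881 miRNAs on 1 to 4 probes. The software multiplies probe totals by an effective spot size, 0.6 at D0 and 0.780 at D4.

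From these, ratios, lower bounds, calls and medians were obtained in Python (3.11.15) using pandas (2.3.3), scipy (1.17.1) and numpy (2.4.6), and drawn with matplotlib (3.10.9). The thresholds of 2 and 0.5 are those of the study. Its text names division by the D0 signal and no other scaling, so unscaled ratios were primary. The study's own ratios, however, are on a scale close to that of quantile-normalized signals, so the unscaled ratios are higher than on the study's scale. Bounds used the higher of 3 times the error summed over probes and the lowest detected signal of the day. Normexp (offset 50) used limma 3.58.1 under R 4.3.3. Its values were then multiplied by the effective spot size. Dim ratios therefore move towards 1.30 with the same probes, and towards another value where the number of summed probes differed. The technical error of a ratio combines the software's errors of both arrays in quadrature (median 16.5% of the ratio) and covers variation within an array alone. A small simulation covered only the calling by thresholds, before and after division by a factor known in advance. The other steps, among them detection calls, probe sums, bounds and normexp, were not simulated. No spot was saturated. Precision is limited by the number of arrays.

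Named miRNAs were the 10 highest and lowest ratios, the 10 brightest gained, lost and on each day, and the extremes of each list. Members and lists were chosen with earlier results of these data known. Sequences and genes were taken by name from RefSeq GRCm38.p6. The array header names mm9, and no array coordinates were used. The D12 and D16 arrays were used for persistence only.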

Additional observations from a re-analysis of the deposited data

How the results depend on the processing

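The number of raised miRNAs (197 unscaled) was 92 with spike-in scaling, 30 with the 75th percentile and 36 with quantile normalization. It was 116 when the ratio had to pass by 2 technical errors and 119 with a 3-fold threshold. It was also 119 with a filter on signals above a median of the study's methods. Under the other settings it was between 133 and 258. Some settings left fewer miRNAs to compare than the 317 behind the 197. The raised were 119 of 170 with that filter and 146 of 221 with at least 50% of spots well above background. They were 208 of 271 on the left side and 167 of 312 on the right side. Over shared probes they were 190 of 316, and with the median of replicate spots 190 of 310. The single lowered miRNA became 13 with spike-in scaling, 101 with the 75th percentile, 68 with quantile normalization, and 3 without the effective spot size, on the right side of the arrays or with a 1.5-fold threshold. There were 0 over shared probes, with normexp, with at least 50% of spots well above background, beyond 2 errors, with the brightness filter, with the 3-fold threshold and on the left side, a setting added after seeing the data. The 109 gained miRNAs were 72 on the right side, 161 on the left and 6 with the brightness filter, and the 12 lost were 36 on the right side, 4 on the left and 0 with the filter. The median ratio (2.47) was 1.35 with spike-in scaling, 1.90 without the spot size, 1.71 with normexp and 2.97 on the left side (over the 271 miRNAs detected there on both days), and lay below 1 with the 75th percentile (0.676) and quantile normalization (0.814). Normexp draws dim ratios of unchanged probes towards 1.30, and quantile normalization lowers the ratios of the dimmest miRNAs. The cause was not tested beyond what each setting does by construction.

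Of the 56 named miRNAs detected on both days, 14 turned from above to below 1 with the 75th percentile, let-7b-3p (0.680), let-7d-3p (0.491), miR-466i-5p (0.324), miR-5126 (0.532), miR-6999-3p (0.335), miR-1224-5p (0.552), miR-2137 (0.856), miR-370-3p (0.674), miR-3963 (0.961), miR-494-3p (0.713), miR-5100 (0.920), miR-6366 (0.961), miR-669p-3p (0.766) and miR-6769b-5p (0.714). With quantile normalization 7 did, let-7b-3p (0.856), let-7d-3p (0.673), miR-370-3p (0.852), miR-466i-5p (0.455), miR-5126 (0.784), miR-669p-3p (0.954) and miR-6999-3p (0.274). With spike-in scaling 3 did and without the spot size 2, while 6 turned from below to above 1 over shared probes and 3 with normexp. The 3 with normexp moved in the direction of 1.30, to which that setting draws dim ratios of unchanged probes. Scaling, shared probes and normexp leave the detection calls as they are, so they give no other count of gained or lost miRNAs. No paired analysis was possible because each day has 1 array, and no replicate could be left out.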
